A study of Bombyx mori with 9 samples.

Results

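Hsp70 and Hsp90 chaperones were described here through the 5 genes of the silkworm count table that carry these names: Hsp70, LOC733093 (listed in the gene table with the synonym BmHsp70), HSP70 (a separate gene with the synonym grp78), Hsp70-14 and Hsp90 (synonym Hsp83). They were chosen by gene ID and are written here with upper and lower case as in the table. They are 5 of 16674 genes, and all 5 are among the 7610 genes with enough counts over the 9 libraries to be tested. The data are RNA-seq counts of whole silk glands of Bombyx mori larvae taken on day 3 of instar 5, with 3 larvae per strain as biological replicates. LAT51 larvae came from the rearing site CAR, where the ambient temperature was 23.9 °C, and MO204 and DMMMSU119 larvae came from TCMO, at 31.7 °C. LAT51 and MO204 were classed by the rearing facilities as priority strains and DMMMSU119 as a poorly performing strain. No strain was sampled at both sites, so site, temperature and strain cannot be told apart in any comparison with LAT51, and only MO204 and DMMMSU119 can be compared at 1 site.

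Hsp70 chaperones bind exposed stretches of unfolded proteins and release them in a cycle driven by ATP. J-domain proteins bring clients to Hsp70 and speed up its ATP hydrolysis. Hsp90 receives many of these clients and completes their maturation together with co-chaperones such as Cdc37 and Ahsa1. In insects some Hsp70 genes are nearly silent until heat or another stress acts through heat shock factor, whereas the cognate Hsp70 of the cytosol, here Hsc70-4, and the form of the endoplasmic reticulum, known as grp78 or BiP, are made all the time. The silk gland secretes very large amounts of fibroin and sericin, and grp78 assists folding of secreted proteins in the endoplasmic reticulum.

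The 9 libraries held between 4527847 and 11641130 counts. The 5 silk gland markers found in the table (FIBH, Fib-l, P25, Ser2 and Ser3) were counted in every library and took 12.03% to 18.33% of the counts in LAT51, 13.2% to 18.6% in MO204 and 21.7% to 32.3% in DMMMSU119. Values below are counts per 1000000 (CPM) after TMM normalization, which sets the bulk of the genes equal between libraries, and the scaling factors were 1.26 to 1.53 in LAT51 and MO204 but 0.421 to 0.591 in DMMMSU119. A fat body list (Sp1, Sp2 and VG, 3 of 9 names found) summed to 10.3 to 62.2 CPM in LAT51, 8.54 to 222 in MO204 and 199 to 23274 in DMMMSU119. A muscle list (A1 and A2, 2 of 9 found) reached 7739 CPM in DMMMSU119-0 and at most 399 CPM elsewhere, and a haemocyte list (PPO1 and PPO2, 2 of 6 found) lay between 5.59 and 14.0 CPM in all libraries. In glands measured whole, fewer cells of a type and less RNA per cell cannot be told apart.

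The 5 genes fell into 2 patterns. Hsp70 and LOC733093 had almost no counts in LAT51 and were clearly counted in DMMMSU119 and in a single MO204 larva. HSP70, Hsp70-14 and Hsp90 were counted in every library and were lowest in DMMMSU119. Hsc70-4, a member of the same family that carries its own name, went the other way from these last 3 genes and was highest in DMMMSU119.

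**Figure D1:**
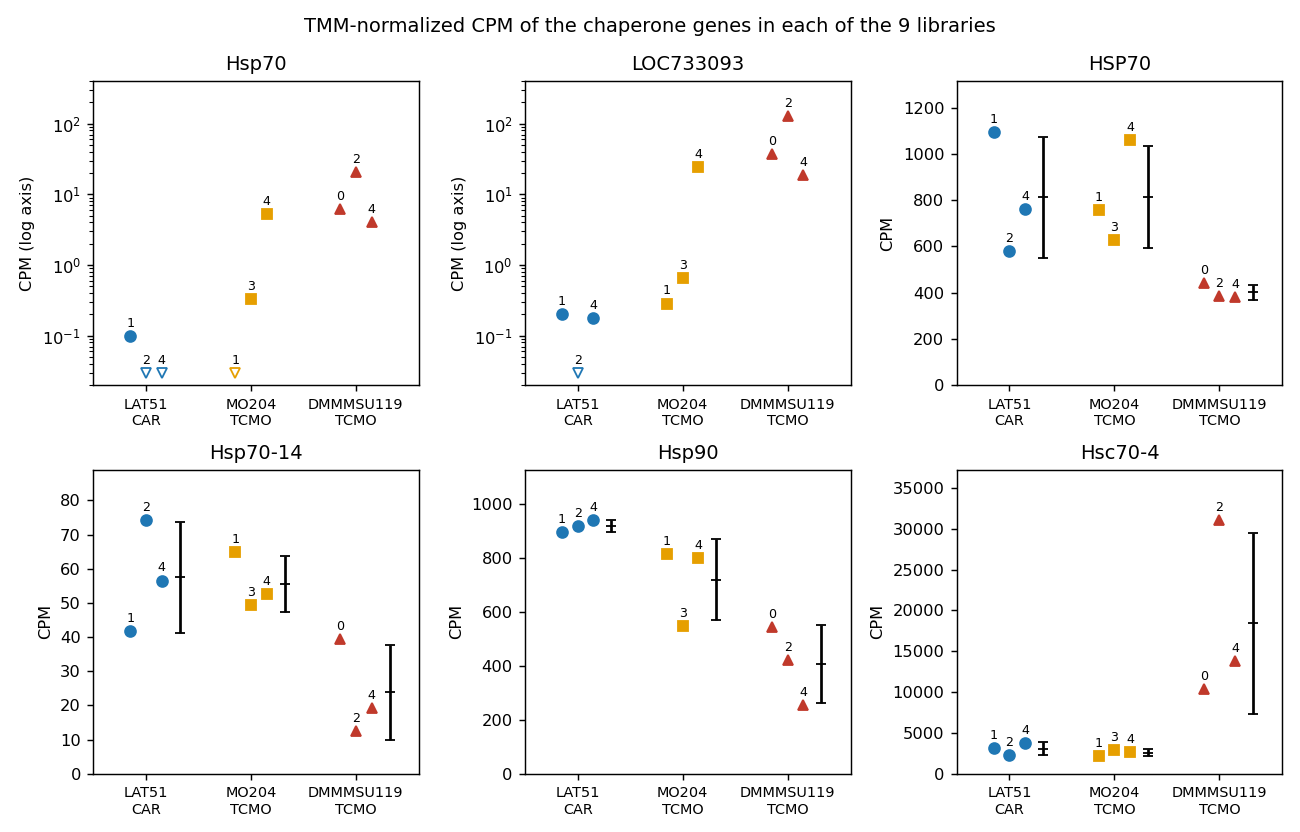
TMM-normalized CPM of the 5 chaperone genes and of Hsc70-4 in each library, by strain and site, with the replicate number of the labels above each point. Hsp70 and LOC733093 are on a log axis, where open triangles at the bottom mark libraries with 0 counts. The other genes are on linear axes from 0, with the mean and SD of each strain (n = 3) as a bar. Hsp70 and LOC733093 are high in the 3 DMMMSU119 libraries and in MO204-4, and HSP70 and Hsp70-14 are lowest in DMMMSU119.

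In the LAT51 larvae 1, 2 and 4, Hsp70 had 1, 0 and 0 counts. In MO204-1, MO204-3 and MO204-4 it had 0, 2 and 48 counts, and in DMMMSU119-0, DMMMSU119-2 and DMMMSU119-4 it had 22, 83 and 22 counts. Every DMMMSU119 library thus stood above every LAT51 library, while MO204 held 2 larvae near 0 and 1 larva at the level of DMMMSU119. In CPM this was at most 0.0998 in LAT51, 0 to 5.25 in MO204 and 4.06 to 20.4 in DMMMSU119.

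LOC733093 repeated this order. It had 2, 0 and 1 counts in LAT51, 4, 4 and 219 counts in MO204 and 134, 524 and 103 counts in DMMMSU119, in the same library order. MO204-4, at 24.0 CPM, lay above the lowest DMMMSU119 library, which had 19.0 CPM, and DMMMSU119-2 was the highest of all at 129 CPM. As a share of all counts, without TMM factors, MO204-4 was above both DMMMSU119-0 and DMMMSU119-4 for Hsp70 and for LOC733093, and DMMMSU119-2 was still the highest. Over the 7610 genes tested, the spread between the 9 libraries on the log2 scale was at percentile 97.19 for Hsp70 and 99.04 for LOC733093.

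Because LAT51 held 1 count of Hsp70 and 3 of LOC733093, the fitted fold changes of these genes depend on the prior count. In their place the ratio of the summed counts is given, each sum divided by the summed TMM-scaled library sizes of its group. Hsp70 was 304-fold lower in LAT51 than in DMMMSU119, with a 95% counting interval of 53.5 to 12090, and LOC733093 was 607-fold lower (207 to 2948). These intervals cover counting error only and not the spread between larvae. The ratios also rest on the TMM factors. By library size alone they would be smaller, as would the ratios below that involve DMMMSU119 libraries. With edgeR's quasi-likelihood test over all genes, both differences between LAT51 and DMMMSU119 passed the threshold of 0.1 (edgeR adjusted p = 0.0178 for Hsp70 and 0.0128 for LOC733093). Without DMMMSU119-2, the library with the most counts, the ratios were 153 (26.0 to 6168) and 274 (92.7 to 1339), and both genes passed the test in each of the 9 fits that left out 1 library.

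Between LAT51 and MO204 the picture rested on MO204-4. Hsp70 was 53.2-fold lower in LAT51 than in MO204 (9.12 to 2143) and LOC733093 80.5-fold lower (27.2 to 393). Without MO204-4, MO204 had 2 counts of Hsp70 and 8 of LOC733093 in all, and the ratios fell to 3.09 (0.161 to 182) and 4.12 (0.989 to 24.1), both with intervals that include 1. The edgeR adjusted p with all libraries was 0.259 for Hsp70 and 0.182 for LOC733093, and neither gene was called. DESeq2's Wald test called both, with adjusted p = 0.0702 for Hsp70 and 0.0262 for LOC733093.

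At TCMO alone, the log2 fold change of MO204 over DMMMSU119 was -2.45 for Hsp70 (SE 1.25, edgeR adjusted p = 0.179) and -2.89 for LOC733093 (SE 1.32, edgeR adjusted p = 0.137). These values rest on the TMM factors, and by library size alone the differences would be smaller. They also moved with single libraries. With MO204-4 left out, both passed (edgeR adjusted p = 0.0207 and 0.0108), and since MO204 then held 2 and 8 counts, the ratio of counts is given: Hsp70 was 98.2-fold lower in MO204 than in DMMMSU119 (26.6 to 820) and LOC733093 147-fold lower (74.3 to 342). With DMMMSU119-2 left out instead, the log2 fold change was -1.44 for Hsp70 and -1.75 for LOC733093 (edgeR adjusted p = 0.521 and 0.423). MO204-4 also had counts for 11896 genes, the most of the 9 libraries, against 9853 to 10757 in all the others. Its silk gland markers took 16.0% of the counts and its fat body list summed to 108 CPM, both inside the range of the other MO204 libraries.

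For CAR vs. TCMO, which sets the 3 LAT51 libraries against the 6 TCMO libraries, Hsp70 was 130-fold lower in CAR (23.1 to 5178) and LOC733093 243-fold lower (82.8 to 1178). Every CAR library was below every TCMO library for LOC733093, as for 4.47% of the genes tested, but for Hsp70 both sites held libraries with 0 counts. Neither gene passed the edgeR test (adjusted p = 0.185 for Hsp70 and 0.178 for LOC733093). With DESeq2's Wald test both passed, at adjusted p = 0.00386 for Hsp70 and 3.35e-05 for LOC733093, in a fit that called 9.85% of the genes. With 1 mean per strain in edgeR, which called 15.8% of the genes, both passed as well (edgeR adjusted p = 0.0595 and 0.0448). Leaving out MO204-1 also brought both under the threshold (edgeR adjusted p = 0.0746 and 0.0754).

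The gene table places Hsp70 and LOC733093 side by side with Hsp90. Along the chromosome the order is Hsp90, LOC733093, LOC101745500, Hsp70 and LOC101735832, with no other gene of the table between them. HSP70, Hsp70-14 and Hsc70-4 lie on other chromosomes. LOC101745500 and LOC101735832 carry no name in the files or the gene table, and their values were described after being seen. The table is of another assembly than the one the reads were aligned to. Of its positions, only the order and the overlaps of genes were used, and both may differ in the assembly used for alignment.

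LOC101745500 had 0 counts in each LAT51 library, 1, 1 and 40 counts in MO204 and 41, 107 and 21 counts in DMMMSU119. With LAT51 set to a floor of 3 counts over the group, it was at least 135-fold lower in LAT51 than in DMMMSU119 (edgeR adjusted p = 0.0176). LOC101735832 had 1, 0 and 1 counts in LAT51, 3, 4 and 68 in MO204 and 60, 226 and 39 in DMMMSU119. Its ratio was 389-fold lower in LAT51 than in DMMMSU119 (107 to 3223, edgeR adjusted p = 0.00905), and between MO204 and DMMMSU119 it also passed, with a log2 fold change of -3.25 (SE 1.14, edgeR adjusted p = 0.0674).

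All 4 of these loci were therefore high in the same 4 libraries, MO204-4 and the 3 of DMMMSU119, and DMMMSU119-2 was the highest for each. Summed over the 4 loci, the counts were 4, 0 and 2 in LAT51, 8, 11 and 375 in MO204 and 257, 940 and 185 in DMMMSU119. The share of LOC733093 in that sum was 58.4% in MO204-4 (95% exact binomial interval 53.2% to 63.4%), and it was 52.1%, 55.7% and 55.7% in DMMMSU119-0, DMMMSU119-2 and DMMMSU119-4. Hsp70 took 12.8% in MO204-4 (9.59% to 16.6%) and between 8.56% and 11.9% in DMMMSU119. The shares compare libraries and not genes, since no transcript lengths were at hand. Near-identical Hsp70 copies can share reads, and how reads with several matches were counted is not given in the sources used here, so the split between the loci is uncertain. In a separate alignment with STAR, the study reported a larger share of reads with several matches in DMMMSU119 than in LAT51 and MO204. Such reads may therefore bear on the differences between strains as well, which was not tested.

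Genes on either side of the 4 loci differed in pattern. Hsp90 itself, directly beside LOC733093, was lower in DMMMSU119 than in LAT51. On the far side of Hsp90, LOC119628416 had 2.40, 3.23 and 1.58 CPM in LAT51, 1.99, 0.325 and 7.22 CPM in MO204 and 23.3, 118 and 17.5 CPM in DMMMSU119, again with the highest MO204 value in MO204-4 and the highest of all in DMMMSU119-2. Its log2 fold change of MO204 over DMMMSU119 was -4.02 (SE 0.981, edgeR adjusted p = 0.0220). LOC101735693, the next gene after LOC101735832, had 0 counts in all 9 libraries, so it showed no pattern. LOC101746523 beyond it had 0.899, 0.968 and 0.350 CPM in LAT51, 0.926, 0.325 and 1.09 CPM in MO204 and 6.45, 1.23 and 4.61 CPM in DMMMSU119. After TMM normalization LOC101746523 was higher in each DMMMSU119 library than in all others. It was called in both comparisons (log2 fold change -2.37 for LAT51 and -2.31 for MO204, each over DMMMSU119, edgeR adjusted p = 0.0292 and 0.0379). However, DMMMSU119-2 was its lowest DMMMSU119 library and held 5 counts, against 10 in MO204-4. As a share of all counts, without TMM factors, DMMMSU119-2 was not above all LAT51 and MO204 libraries.

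**Figure D2:**
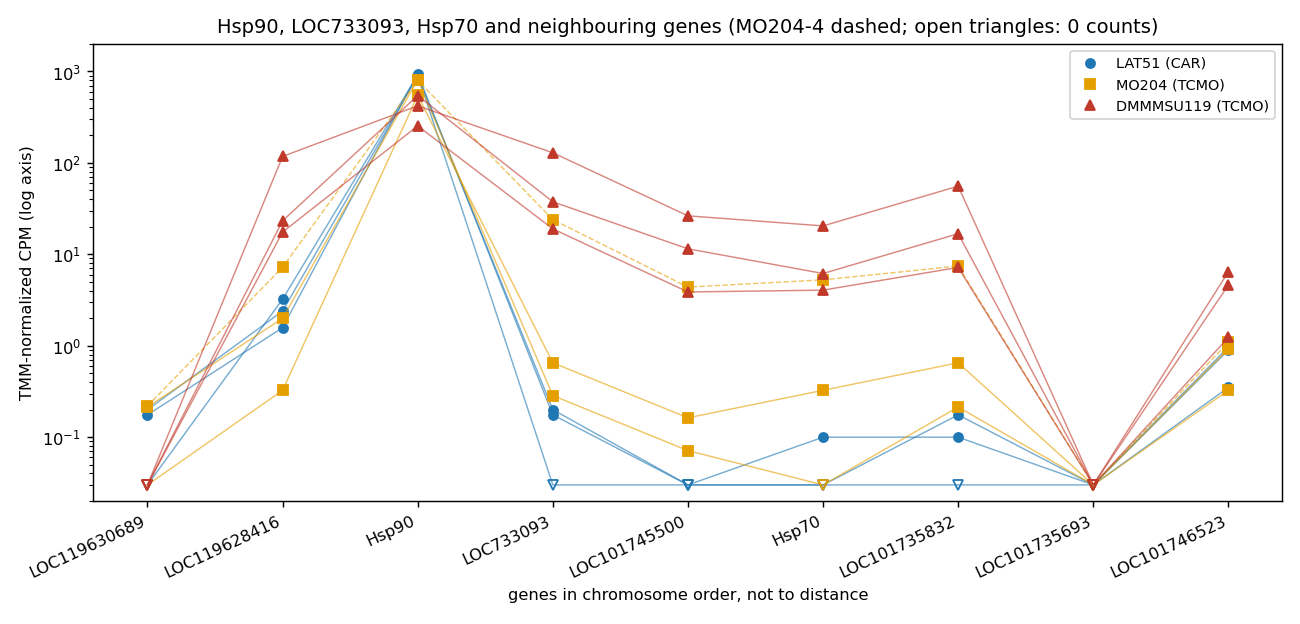
TMM-normalized CPM, on a log axis, of Hsp90, LOC733093, LOC101745500, Hsp70, LOC101735832 and their flanking genes, in chromosome order and not to distance. Each line joins the values of 1 library, MO204-4 is dashed, and open triangles at the bottom mark 0 counts. From LOC733093 to LOC101735832 the dashed line runs with the 3 DMMMSU119 libraries, whereas the 3 LAT51 and the 2 other MO204 libraries stay below 1 CPM. Levels of different genes are not comparable because lengths differ.

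HSP70, the gene with the synonym grp78, had 1096, 581 and 761 CPM in LAT51, 757, 626 and 1059 CPM in MO204 and 439, 384 and 380 CPM in DMMMSU119. The DMMMSU119 libraries were close together and all below every LAT51 and MO204 library. Strain means were 813 ± 261 CPM in LAT51, 814 ± 222 in MO204 and 401 ± 33.1 in DMMMSU119 (SD, n = 3 each). The log2 fold change was 1.02 for LAT51 over DMMMSU119 (SE 0.334, edgeR adjusted p = 0.0480) and 1.02 for MO204 over DMMMSU119 (SE 0.334, edgeR adjusted p = 0.0542). LAT51 and MO204 had a log2 fold change of -0.00242 with a 95% interval of -0.74 to 0.74, and its sign changed with the processing.

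These calls for HSP70 were near the threshold. Against LAT51, edgeR adjusted p was 0.125 without LAT51-1, 0.109 without DMMMSU119-2 and 0.112 without DMMMSU119-4. Between MO204 and DMMMSU119 it was 0.118 without MO204-1, 0.136 without MO204-4, 0.127 without DMMMSU119-2 and 0.125 without DMMMSU119-4. In the gene table, which is of another assembly, HSP70 overlaps 2 other genes. By the study's account reads that overlap several genes were not counted. If the overlaps also hold in the assembly used for counting, part of the HSP70 reads may be missing from all libraries.

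Hsp70-14, named like a human relative of Hsp70 that works at the ribosome, had 41.7, 74.2 and 56.6 CPM in LAT51, 64.9, 49.3 and 52.7 CPM in MO204 and 39.5, 12.6 and 19.4 CPM in DMMMSU119. No DMMMSU119 library reached the lowest LAT51 or MO204 value, although DMMMSU119-0 came within a few CPM of LAT51-1. The means were 57.5 ± 16.2 CPM in LAT51, 55.6 ± 8.24 in MO204 and 23.8 ± 14.0 in DMMMSU119 (SD, n = 3 each). Its log2 fold change was 1.28 for LAT51 over DMMMSU119 (SE 0.411, edgeR adjusted p = 0.0455) and 1.23 for MO204 over DMMMSU119 (SE 0.411, edgeR adjusted p = 0.0585), against 0.05 for LAT51 over MO204 (95% interval -0.85 to 0.94, with a sign that changed with the processing).

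The lowest library for Hsp70-14, DMMMSU119-2, was the highest for Hsp70 and LOC733093. Without DMMMSU119-0 the log2 fold changes of Hsp70-14 were 1.87 for LAT51 and 1.82 for MO204, each over DMMMSU119. Against LAT51 the call was lost without LAT51-2, DMMMSU119-2 or DMMMSU119-4 (edgeR adjusted p = 0.146, 0.114 and 0.123). Between MO204 and DMMMSU119 it was lost without MO204-1, MO204-3, DMMMSU119-2 or DMMMSU119-4 (edgeR adjusted p = 0.162, 0.104, 0.149 and 0.149).

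Hsp90 had 896, 917 and 939 CPM in LAT51, 813, 547 and 800 CPM in MO204 and 545, 421 and 254 CPM in DMMMSU119. The LAT51 larvae were nearly equal and above all others, and the lowest MO204 library, MO204-3, was only just above the highest DMMMSU119 library. Means were 917 ± 21.6 CPM in LAT51, 720 ± 150 in MO204 and 407 ± 146 in DMMMSU119 (SD, n = 3 each), which gave the order LAT51, MO204, DMMMSU119. Only the ends of this order differed by the edgeR test. The log2 fold change was 1.17 for LAT51 over DMMMSU119 (SE 0.340, edgeR adjusted p = 0.0313), and Hsp90 passed in each of the 9 fits that left out 1 library.

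For the neighbours in the order, Hsp90 had a log2 fold change of 0.35 for LAT51 over MO204 (95% interval -0.40 to 1.10, edgeR adjusted p = 0.824) and of 0.82 for MO204 over DMMMSU119 (95% interval 0.07 to 1.58, edgeR adjusted p = 0.105, DESeq2 adjusted p = 0.0596). Without DMMMSU119-0, the difference between MO204 and DMMMSU119 was 1.12 and passed (edgeR adjusted p = 0.0377). For CAR vs. TCMO, Hsp90 was the 1 gene of the 5 for which all CAR libraries exceeded all TCMO libraries, a pattern that 4.20% of the genes tested showed. It averaged 917 ± 21.6 CPM in CAR and 563 ± 217 CPM in TCMO (SD, n = 3 and 6), with a log2 fold change of 0.70 (95% interval -0.16 to 1.57, edgeR adjusted p = 0.413).

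**Figure D3:**
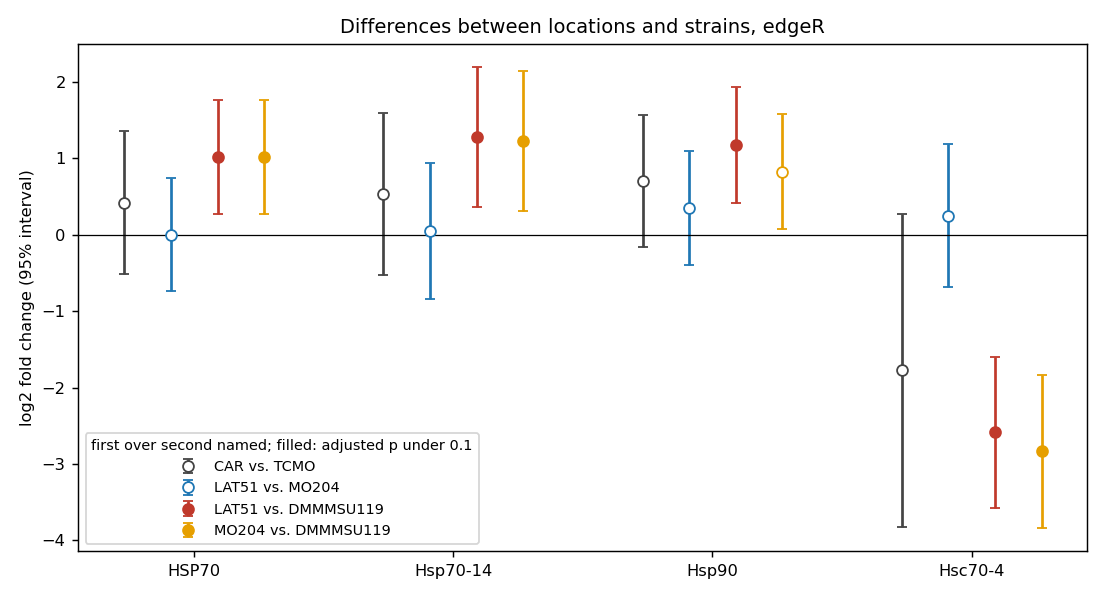
Log2 fold changes from edgeR with 95% intervals for the 3 chaperone genes counted in every library and for Hsc70-4, each for CAR over TCMO, LAT51 over MO204, LAT51 over DMMMSU119 and MO204 over DMMMSU119. Filled points passed an adjusted p of 0.1. HSP70, Hsp70-14 and Hsp90 lie above 0 in both comparisons over DMMMSU119, and Hsc70-4 lies below it.

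Counted over the 5 genes, LAT51 vs. DMMMSU119 called 5 of 5 in edgeR, where 38.0% of all genes tested were called. HSP70, Hsp70-14 and Hsp90 were the 3 called higher in LAT51, against 18.2% of all genes, and Hsp70 and LOC733093 the 2 called lower, against 19.8%. MO204 vs. DMMMSU119 called 2 of 5, HSP70 and Hsp70-14, both higher in MO204, and this share is close to the 33.0% of all genes called there (16.3% higher and 16.7% lower). LAT51 vs. MO204 called 0 of 5 in edgeR, against 3.07% of all genes, with 2 of 5 at an unadjusted p under 0.05 (13.0% of all genes) and 2 of 5 called by DESeq2 (5.68% of all genes). CAR vs. TCMO also called 0 of 5 in edgeR, against 1.48% of all genes, and again 2 of 5 had an unadjusted p under 0.05 (15.7% of all genes) and 2 of 5 were called by DESeq2 (9.85% of all genes). In each of these cases the 2 genes were Hsp70 and LOC733093. For LAT51 vs. MO204 these 2 genes passed the count filter only through the DMMMSU119 libraries. HSP70 and Hsp70-14 had 95% intervals for CAR over TCMO of -0.52 to 1.36 and -0.52 to 1.59 on the log2 scale, and both sites overlapped. HSP70, Hsp70-14 and Hsp90 had all 6 LAT51 and MO204 libraries above all 3 DMMMSU119 libraries, a pattern shown by 14.8% of the genes tested. The strain comparisons share the LAT51 or DMMMSU119 libraries and are not independent of each other.

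The differences from DMMMSU119 depend on the scaling, whose factors were lowest in that strain. Without TMM factors, by library size alone, the median log2 fold change of all genes was 1.39 for LAT51 and 1.43 for MO204, each over DMMMSU119, against 0.01 and 0.03 with them. By library size alone HSP70, Hsp70-14 and Hsp90 had log2 fold changes of 2.42, 2.57 and 2.55 for LAT51 over DMMMSU119. Relative to that median these were 1.02, 1.17 and 1.16, and for MO204 over DMMMSU119 they were 0.99, 1.15 and 0.81. Taking off the median again sets the bulk of the genes equal, as TMM does. The values relative to it therefore cannot show whether the differences hold under another scaling. Hsp70 and LOC733093 stayed lower in LAT51 than in DMMMSU119 without TMM factors, but by smaller fold changes (edgeR adjusted p = 0.0126 and 0.00580). The sum of the fat body list was highest in DMMMSU119-0, while Hsp70, LOC733093 and Hsc70-4 were highest in DMMMSU119-2, where that list was at 6624 CPM and the muscle list at 12.1 CPM. The share of silk gland markers was also highest in DMMMSU119-2, at 32.3%. The part of these lists in the results was not tested.

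Hsc70-4, the heat shock cognate that serves unstressed cells, had 3157, 2243 and 3790 CPM in LAT51, 2141, 2935 and 2672 CPM in MO204 and 10379, 31035 and 13836 CPM in DMMMSU119. After TMM normalization all DMMMSU119 libraries were far above all others, and DMMMSU119-2 was again the highest. As shares of all counts, without TMM factors, the DMMMSU119 libraries were still above all others, but by less. The log2 fold change of Hsc70-4 was -2.59 for LAT51 over DMMMSU119 (SE 0.444, edgeR adjusted p = 0.00494) and -2.83 for MO204 over DMMMSU119 (SE 0.448, edgeR adjusted p = 0.00549). It was 0.25 for LAT51 over MO204 (95% interval -0.69 to 1.18) and -1.78 for CAR over TCMO (SE 0.922, edgeR adjusted p = 0.381). Hsc70-4 overlaps 1 other gene in the gene table. If this also holds in the assembly used for counting, the reads of that stretch may not have been counted.

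The J-domain list held 25 genes, of which 23 were tested. For LAT51 over DMMMSU119, 17 of 23 had a positive log2 fold change. EdgeR called 4 higher (DnaJ-3, DnaJ-8, DnaJ-17 and LOC101746621), a share close to the 18.2% of all genes called higher, and 1 lower (DnaJ-6), where 19.8% of all genes were called lower, with a median log2 fold change of 0.46 over the list and 0.01 over all genes. For MO204 over DMMMSU119, 18 of 23 had a positive log2 fold change, and edgeR called 5 higher and 2 lower, against 16.3% and 16.7% of all genes, with a median of 0.48 over the list and 0.03 over all genes. In CAR vs. TCMO no J-domain gene was called by edgeR (1.48% of all genes) or DESeq2 (9.85%). In LAT51 vs. MO204 none was called either (3.07% and 5.68% of all genes). An unadjusted edgeR p under 0.05 was found for 1 of 23 in CAR vs. TCMO (15.7% of all genes) and 0 of 23 in LAT51 vs. MO204 (13.0%).

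DnaJ-3 had 134, 160 and 171 CPM in LAT51, 105, 66.3 and 136 CPM in MO204 and 73.1, 34.2 and 44.1 CPM in DMMMSU119. Its log2 fold change was 1.62 for LAT51 over DMMMSU119 (SE 0.372, edgeR adjusted p = 0.0149). DnaJ-8 had 39.7, 59.1 and 46.9 CPM in LAT51, 45.6, 49.8 and 41.3 CPM in MO204 and 28.6, 8.87 and 17.0 CPM in DMMMSU119, so that DMMMSU119-2 was the lowest as for Hsp70-14. DnaJ-17 and LOC101746621 were higher in LAT51 than in DMMMSU119 by log2 fold changes of 1.60 and 1.35, and higher in MO204 than in DMMMSU119 by 1.50 and 1.23.

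After TMM normalization DnaJ-6 and DnaJ-5 had their highest strain means in DMMMSU119, as Hsc70-4 did. As shares of all counts, without TMM factors, DnaJ-6 and DnaJ-5 were instead lower in each DMMMSU119 library than in every other library. DnaJ-5 had 82.9, 58.0 and 54.8 CPM in LAT51, 59.9, 56.9 and 46.3 CPM in MO204 and 98.4, 106 and 93.3 CPM in DMMMSU119, with every DMMMSU119 library above every other. It was called for MO204 over DMMMSU119, with a log2 fold change of -0.87 (SE 0.257, edgeR adjusted p = 0.0399), and for LAT51 over DMMMSU119 it had -0.61 (SE 0.256, edgeR adjusted p = 0.103). DnaJ-6 was lower in LAT51 than in DMMMSU119 by a log2 fold change of -0.74 and lower in MO204 by -0.76 (edgeR adjusted p = 0.0750 and 0.0778). DnaJ-1, the other J-domain gene among the most counted of those not named so far, averaged 68.4 ± 21.4 CPM in LAT51, 72.8 ± 16.4 in MO204 and 44.0 ± 4.40 in DMMMSU119 (SD, n = 3 each) and was not called.

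Of the Hsp90 co-chaperones, Cdc37, which hands protein kinases to Hsp90, had 39.6, 31.1 and 36.4 CPM in LAT51, 39.3, 32.7 and 31.1 CPM in MO204 and 55.8, 56.7 and 47.4 CPM in DMMMSU119. After TMM normalization Cdc37 was thus highest in the strain in which Hsp90 was lowest. As a share of all counts, without TMM factors, Cdc37 was instead lower in each DMMMSU119 library than in every other library. Its log2 fold change was -0.58 for LAT51 over DMMMSU119 (SE 0.227, edgeR adjusted p = 0.0855) and -0.63 for MO204 over DMMMSU119 (SE 0.227, edgeR adjusted p = 0.0739). Ahsa1, which stimulates the ATP hydrolysis of Hsp90, had 5 to 31 counts in LAT51, 8 to 13 in MO204 and 6 to 9 in DMMMSU119 and was not called in any of the 4 comparisons.

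HSFd, the heat shock factor gene found in the table, had 44.4, 28.9 and 19.3 CPM in LAT51, 37.5, 31.4 and 17.6 CPM in MO204 and 25.8, 55.9 and 57.3 CPM in DMMMSU119. The strains overlapped, and HSFd was not called in any of the 4 comparisons. After TMM normalization MO204-4, the MO204 library with high Hsp70 and LOC733093, had the lowest HSFd value of all 9 libraries. As a share of all counts, without TMM factors, DMMMSU119-0 was instead the lowest.

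Small heat shock proteins hold unfolded proteins until Hsp70 can refold them, and 6 of their genes were found. All 6 had a negative log2 fold change for LAT51 over DMMMSU119 and for MO204 over DMMMSU119. With edgeR, 5 of 6 were called lower and 0 higher in LAT51 than in DMMMSU119, against 19.8% and 18.2% of all genes. In MO204, 3 of 6 were called lower (Hsp20.4, Hsp20.8 and Hsp23.7) and 0 higher than in DMMMSU119, against 16.7% and 16.3% of all genes. The medians were -4.76 and -1.78 on the log2 scale, against the 0.01 and 0.03 over all genes. In edgeR, Hsp20.1 was the 1 of the 6 called in CAR vs. TCMO (1.48% of all genes) and in LAT51 vs. MO204 (3.07%). Its log2 fold change was -4.95 for CAR over TCMO (SE 0.571, edgeR adjusted p = 0.00714). DESeq2 called 5 of 6 in CAR vs. TCMO (9.85% of all genes) and 2 of 6 in LAT51 vs. MO204 (5.68%). An unadjusted edgeR p under 0.05 was also found for 5 of 6 (15.7% of all genes) and 2 of 6 (13.0%). Hsp20.1 had 1.10, 2.13 and 2.63 CPM in LAT51, 30.1, 57.6 and 38.5 CPM in MO204 and 116.9, 59.37 and 58.98 CPM in DMMMSU119. These values set LAT51 apart from both TCMO strains, unlike Hsp70 and LOC733093, which were near 0 in 2 of the 3 MO204 larvae. Hsp23.7 also had every LAT51 library, at most 2.63 CPM, below every TCMO library, at least 4.72 CPM. Every CAR library was below every TCMO library for 4.47% of the genes tested.

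In MO204-4 the small heat shock genes divided. Hsp19.9 had 118.7 CPM in MO204-4 against 8.33 and 6.02 CPM in MO204-1 and MO204-3, and Hsp23.7 had 15.3 CPM against 4.77 and 4.72 CPM, so both were highest in the same MO204 library as Hsp70 and LOC733093. Hsp20.8 had 3.50 CPM in MO204-4, between the 3.84 and 2.76 CPM of MO204-1 and MO204-3, while the 3 DMMMSU119 libraries had 631 to 1151 CPM. Hsp20.4 had 14 counts in MO204-4 and 6 and 0 in MO204-1 and MO204-3, against 894 to 1375 counts in DMMMSU119. The log2 fold change of MO204 over DMMMSU119 was -8.06 for Hsp20.8 (SE 0.421, edgeR adjusted p = 1.68e-05), the smallest adjusted p of the list. Hsp21.4 had 482 to 811 CPM in MO204 and 681 to 1041 CPM in DMMMSU119 and was not called in any of the 4 comparisons.

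**Figure D4:**
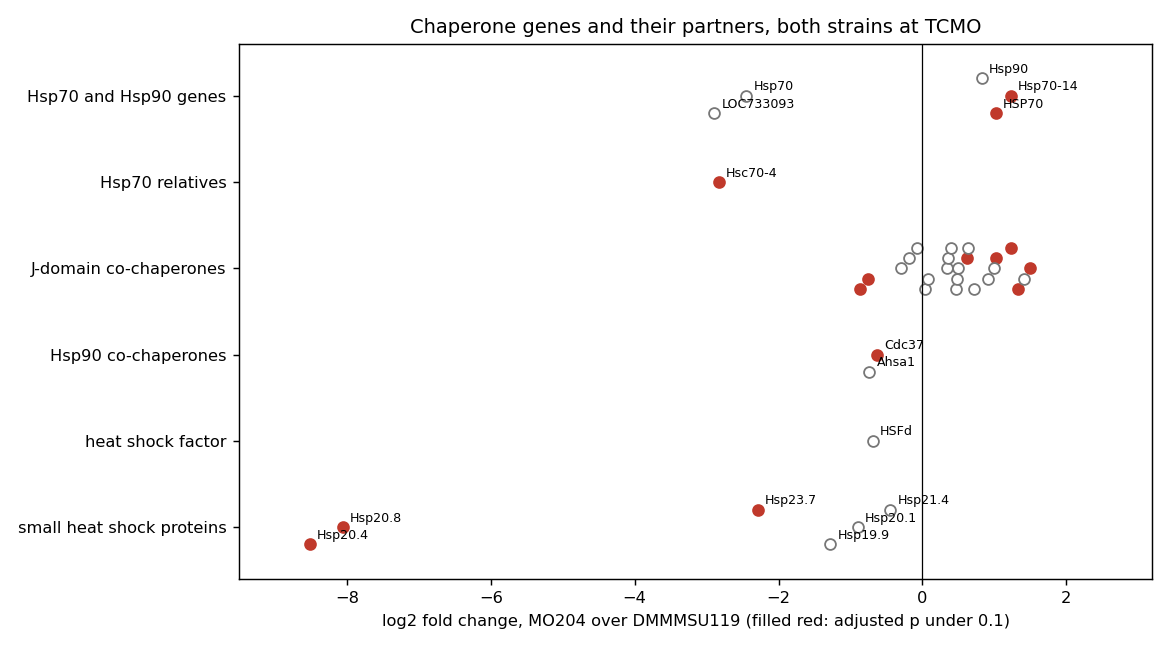
Log2 fold changes of MO204 over DMMMSU119, both reared at TCMO, for the 5 chaperone genes and for each list of related genes, with 1 point per gene. Filled points passed an edgeR adjusted p of 0.1. HSP70, Hsp70-14 and 5 J-domain genes lie above 0 among the filled points, and Hsc70-4, Cdc37, 2 J-domain genes and 3 small heat shock genes lie below 0.

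The genes most like each chaperone were taken as those with the smallest root mean square difference of centred log2 CPM over the 9 libraries, as a description with no test. Hsp70 was most like LOC101745500 (0.417), LOC101735832 (0.486) and LOC101736617 (0.514). LOC733093 was most like LOC101735832 (0.635), LOC101745500 (0.790) and LOC101737917 (0.865). For both genes the first 2 were their chromosome neighbours, with which they may share reads, and at near 0 counts the prior count of 2 brings low genes together.

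The genes most like HSP70 were LOC101743228 (0.197), LOC101742073 (0.209) and LOC100101223 (0.216). Those most like Hsp90 were LOC733138 (0.156), LOC101743216 (0.161) and LOC101738164 (0.166). Hsp70-14 was closest to LOC110384695 (0.113), RpL20 (0.114), the gene of a protein of the large ribosomal subunit, and LOC101745352 (0.114), all on the log2 scale over the same 9 libraries.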

How the data were processed

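The authors trimmed the reads, aligned them with HISAT2 to the RefSeq silkworm genome and counted them per gene with featureCounts, version 1.4.6-p5 per the labels. Counts were deposited raw. The deposited log2 table holds log2 of counts divided by DESeq2 size factors, plus 1, as a check against the counts showed to within 4.97e-14, and was used as an alternative with limma. Strand and multiple-match settings of the counting are not given in the sources used here.

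Genes were filtered with filterByExpr, scaled by TMM and tested over 7610 genes with edgeR's quasi-likelihood test (edgeR 4.0.16) and Benjamini-Hochberg adjustment at 0.1, the study's threshold. Main designs were location alone, or 1 mean per strain, over all 9 libraries. The SE of an edgeR log2 fold change is its absolute value divided by the square root of the test's F statistic. The 95% intervals of edgeR fold changes use this SE, and both are approximate, most so at low counts. DESeq2 1.42.0, other scalings and filters, a replicate block and leaving out each library were alternatives. The code was tested on simulated data. Count ratios are of summed counts, each divided by the summed TMM-scaled library sizes of its group, with exact conditional binomial 95% intervals. The floor for a group at 0 was 3 counts.

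All 5 members are named, with the 3 genes most like each. Listed genes are named if called in CAR vs. TCMO or in at least 2 strain comparisons, along with the 2 others of each list with the highest mean CPM. The gene table gives no descriptions, so lists were matched by symbol and synonym and are incomplete, and lists of nucleotide exchange factors, Hsp90 relatives and chaperonins found 0 genes. It matched 14504 of 16674 IDs. Members and lists were chosen with earlier results of these data known.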

Additional observations from a re-analysis of the deposited data

Results flagged for a closer look

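DMMMSU119-2 stood apart for Hsp70 among the 6 TCMO libraries. It had 20.4 CPM, and the next library had 6.17 CPM, a gap of 0.698 of the whole range. It also stood apart for LOC733093, with 129 CPM against 37.6 CPM in the next library and a gap of 0.711 of the range. The TCMO libraries hold 2 strains, which this rule of gaps does not separate, and about 1 in 20 groups is picked out in this way by chance. Both genes are neighbours that may share reads, so the observations are not independent. Hsc70-4 was also highest in DMMMSU119-2, at 31035 CPM.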

How the results depend on the processing

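In LAT51 vs. DMMMSU119, Hsp70, LOC733093 and Hsp90 stayed called in all 9 other settings and all 9 fits without 1 library, and HSP70 and Hsp70-14 in 6 of those 9 fits each. Members called ranged from 3 to 5 there without 1 library, from 0 to 3 in MO204 vs. DMMMSU119 and from 0 to 2 in CAR vs. TCMO. In CAR vs. TCMO, DESeq2 and 1 mean per strain each called 2 members, with adjusted p of 0.00386 and 0.0595 for Hsp70 and 3.35e-05 and 0.0448 for LOC733093. Without 1 library the edgeR adjusted p ran from 0.0746 to 0.586 for Hsp70 and from 0.0754 to 0.586 for LOC733093. DESeq2 called 2 members in LAT51 vs. MO204, and limma on the deposited log2 table called 5 in MO204 vs. DMMMSU119. The cause of these differences was not tested.

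Genes called in CAR vs. TCMO were 113, and 62 by library size alone, 917 with DESeq2, 58 with at least 10 counts in total, 45 without a filter, 1205 with 1 mean per strain and 16 to 173 without 1 library. In LAT51 vs. MO204 they were 234, and 476 with DESeq2, 102 with at least 10 counts, 99 without a filter and 78 to 307 without 1 library. Library size alone gave 5657 in LAT51 vs. DMMMSU119 and 5559 in MO204 vs. DMMMSU119, in place of 2891 and 2513, and leaving out 1 library gave 1768 to 3201 and 1257 to 2823.

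With the replicate number as a block, the genes called were 2 in CAR vs. TCMO, 29 in LAT51 vs. MO204, 1843 in LAT51 vs. DMMMSU119 and 506 in MO204 vs. DMMMSU119, and members called were 0, 0, 4 and 0. The 5 pairs of same-numbered libraries correlated at -0.15 to 0.23 and the larvae differ, so the numbers do not pair them.

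The sign of near-zero values of LAT51 over MO204 turned. HSP70, at -0.00242, was 0.00736 with DESeq2 size factors, 0.00400 by library size, 0.0160 with DESeq2, 0.0362 with at least 10 counts, 0.0345 without a filter, 0.00936 with limma, 0.000709 in the 6 libraries of the pair and -0.27 to 0.23 without 1 library. Hsp70-14, at 0.05, was -0.00526 by library size, -0.12 with the block and -0.18 to 0.24 without 1 library. Over the LAT51 libraries Hsp70 had 1 count and LOC733093 3 counts, which limits the precision of their ratios.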
